A study of Mus musculus with 3 samples.

Results

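The genes described here are 8 genes of the azurophil (primary) granule and of the cell stage that makes it: the serine proteases Elane, Prtn3, Ctsg and Prss57, the peroxidase Mpo, the promyelocyte membrane protein Ms4a3, the protease inhibitor Serpinb1a and the storage proteoglycan Srgn. They were chosen by symbol, with earlier results of these data known, and all 8 were among the 16072 named genes of the table. All 8 also passed a filter of a mean FPKM of at least 1 over the libraries, which 9130 genes passed.

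Azurophil granules are the first granules that a developing neutrophil forms. Their genes are transcribed mainly in promyelocytes, and transcription is largely shut off before the specific and gelatinase granules are made, so mature neutrophils carry much of these proteins but little of their mRNA. The proteases are made as inactive precursors that cathepsin C trims, are stored bound to the chondroitin sulphate chains of serglycin, and are held in check in the cytosol by SERPINB1.

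The RNA came from bone marrow cells labelled Ly6G+ myeloid cells, from C57BL/6 mice that carried subcutaneous B16.F10 melanoma, a transplantable mouse tumour line, in both groups. An adeno-associated virus (AAV) vector was given into muscle 1 week after the tumour cells. AAV-ctrl is the empty vector and AAV-IL27 carries linked IL-27 subunits (EBI3 and p28) behind the broadly active CAG promoter. A figure legend of the study describes Gr-1+ marrow cells taken 3 weeks after the vector, with n = 2 per group, while its methods name Ly6G+ cells (Gr-1 antibodies bind Ly6G). The study does not mention the tumour there, which comes from the design text. The labels give no age. The groups hold 2 AAV-ctrl libraries (1 and 2) and 1 AAV-IL27 library (2), while the design text counts 4 mice. With 1 AAV-IL27 library there is no replicate error in that group, so no test was run: each difference is that library against the 2 AAV-ctrl libraries, set beside the difference between those 2. It is on the scale of log2(FPKM + 1), where FPKM is mapped fragments scaled for transcript length and for the total mapped in the library, and the added 1 makes differences of low genes smaller.

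The spacing of low FPKM values put the depth at about 19100000 fragments for AAV-ctrl 1, 19400000 for AAV-ctrl 2 and 19300000 for AAV-IL27 2. The neutrophil markers fitted the label: all 10 were measured, at a summed 167527 and 162609 FPKM under AAV-ctrl and 158917 FPKM under AAV-IL27, and Ly6g itself at 711.76, 766.11 and 586.29 FPKM. The libraries also held RNA of other cells. The 11 erythroid markers summed to 20594, 13935 and 2365 FPKM, the 11 macrophage markers to 815, 805 and 231 FPKM, the 8 megakaryocyte markers to 55.8, 62.6 and 10.1 FPKM and the 8 B cell markers to 27.7, 35.1 and 4.38 FPKM, each lowest in the AAV-IL27 library. The 9 monocyte markers (1127, 1191 and 1244 FPKM), the 8 basophil and mast cell markers in the table (418, 473 and 430 FPKM) and the 9 T and NK cell markers (15.0, 16.2 and 15.5 FPKM) differed less in sum, and the 9 eosinophil markers summed to 145, 148 and 113 FPKM. The monocyte sum was mostly Ly6c2 (1023, 1086 and 1145 FPKM). Hdc (406, 456 and 417 FPKM) made up most of the basophil and mast cell sum, and Ear2 (106, 108 and 89.6 FPKM) most of the eosinophil sum. Past the filter, monocyte markers differed in log2 by -0.88 to 0.53 (median 0.11), and eosinophil markers by -2.21 to 0.51 (median -0.55). Of the genes on these lists in the table, only Cma1 (both AAV-ctrl libraries) and Fcer1a (AAV-ctrl 2) were at 0. The part of these shifts in the values of the granule genes was not tested. In bulk RNA of this kind, fewer cells of a type and less RNA per cell cannot be told apart.

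The levels of the 8 genes spanned more than 2 orders of magnitude, and their order was nearly the same in each library. FPKM is per length, so levels can be compared between genes. Srgn ranked 1st of the 8, Serpinb1a ranked 2nd, Mpo ranked 3rd, Elane ranked 4th, Prtn3 ranked 5th and Ctsg ranked 6th in all 3 libraries. Ms4a3 and Prss57 took the last places, with Prss57 above Ms4a3 in both AAV-ctrl libraries and below it in the AAV-IL27 library. The proteases and Mpo were far below the neutrophil granule genes made later: Elane, Mpo, Prtn3 and Ctsg together came to 60.3, 72.9 and 84.6 FPKM, against 50266, 50406 and 46997 FPKM for Ltf, Camp, Ngp and Lcn2, genes of the specific granule. Per 1000 FPKM of those specific granule genes, the early 4 amounted to 1.20 and 1.45 FPKM under AAV-ctrl and 1.80 FPKM under AAV-IL27, where the AAV-IL27 value lay above both.

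**Figure D1:**
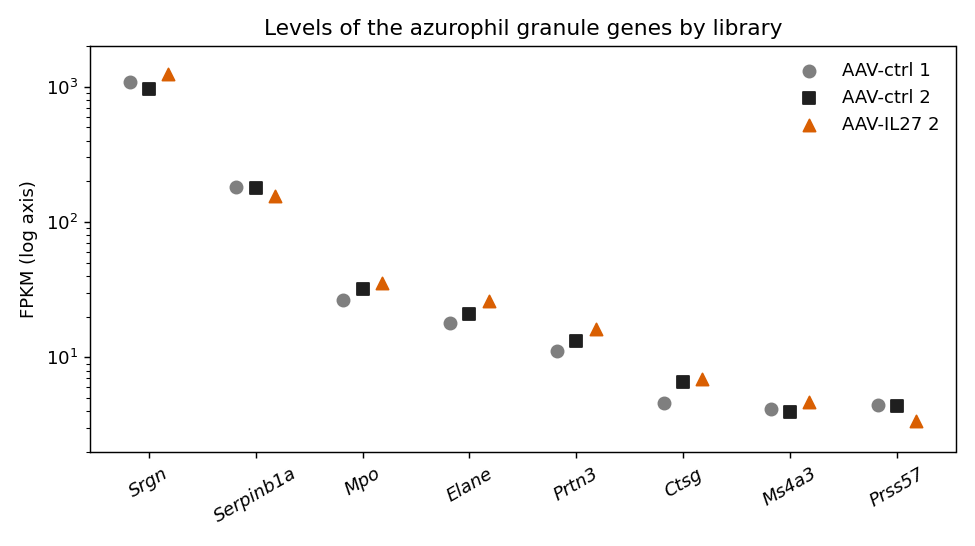
FPKM (log axis) of the 8 genes in each library, in order of mean level: grey circles are AAV-ctrl 1, black squares AAV-ctrl 2 and orange triangles AAV-IL27 2, with 1 library per mark. Srgn lies near 1000 FPKM and Serpinb1a between 155.21 and 181.69 FPKM, while the other 6 lie below 40 FPKM; within a gene the libraries are close together.

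Elane, Prtn3, Ctsg, Mpo, Ms4a3 and Srgn (6 of 8) were higher in the AAV-IL27 library than in either AAV-ctrl library, and 2 of 8 (Prss57 and Serpinb1a) were lower than in either. Among all 9130 genes tested for this, 38.9% lay above both AAV-ctrl libraries and 41.9% below both. None of the 8 was at least 1 log2 unit beyond both, which 0.307% of all genes were upwards and 2.32% downwards, and none reached 0.5 log2 units either. The median difference of the 8 was 0.28, with a range of -0.31 to 0.41, beside a median of -0.0054 and a 5th to 95th percentile of -0.73 to 0.35 over all tested genes. Against AAV-ctrl 2 alone, without AAV-ctrl 1, the median was 0.16. The 2 AAV-ctrl libraries themselves differed by a median of 0.091 over the 8 genes, with a range of -0.19 to 0.45.

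**Figure D2:**
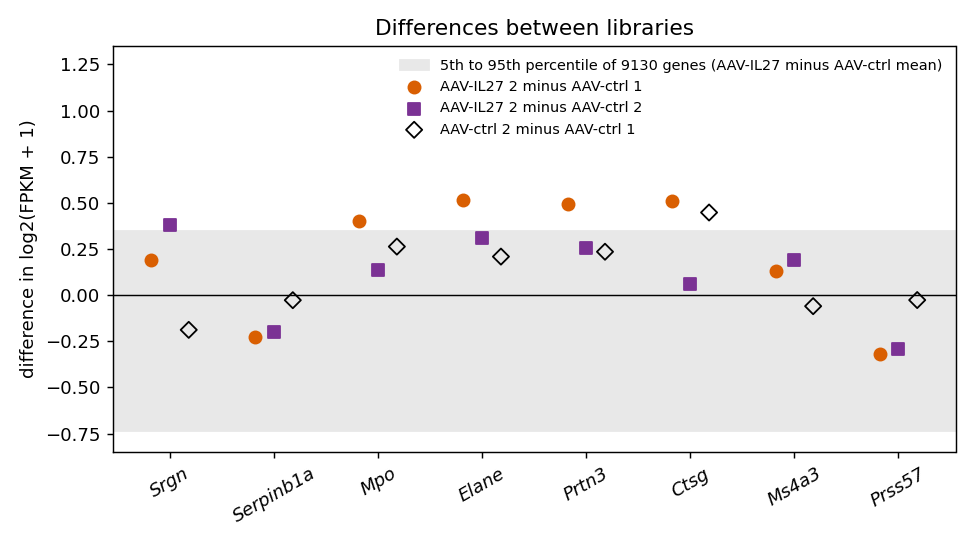
Differences in log2(FPKM + 1) for each gene: orange circles are AAV-IL27 2 minus AAV-ctrl 1, purple squares AAV-IL27 2 minus AAV-ctrl 2 and open diamonds AAV-ctrl 2 minus AAV-ctrl 1. The grey band is the 5th to 95th percentile (-0.73 to 0.35) of the AAV-IL27 minus mean AAV-ctrl difference over 9130 genes. For Mpo, Elane, Prtn3 and Ctsg the diamond lies on the same side of 0 as the other marks, and for Ctsg it is nearly as high as the higher of them.

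Elane encodes neutrophil elastase, the main elastin-cutting protease of the granule. It measured 17.95 and 20.9 FPKM under AAV-ctrl (19.4 ± 2.09, SD, n = 2) and 26.11 FPKM under AAV-IL27. The AAV-IL27 value was higher than both, at 134% of the AAV-ctrl mean, a log2 difference of 0.41 that 3.58% of all tested genes equalled or passed. AAV-ctrl 2 already lay 0.21 above AAV-ctrl 1, so the difference between the groups was 1.98 times that between the controls. In estimated fragments Elane had 313, 371 and 461.

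Prtn3 encodes proteinase 3, a close relative of elastase and an autoantigen of vasculitis. It measured 11.15, 13.3 and 16.08 FPKM in the 3 libraries, which stood in the same order as for Elane. The AAV-IL27 value was 132% of the AAV-ctrl mean (12.2 ± 1.52 FPKM, SD, n = 2), a log2 difference of 0.37 beside 0.24 between the AAV-ctrl libraries. Prtn3 and Elane kept nearly the same proportion, with 0.621, 0.636 and 0.616 FPKM of Prtn3 per FPKM of Elane in the 3 libraries.

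Ctsg encodes cathepsin G, the granule protease with chymotrypsin-like preference. It measured 4.58 FPKM in AAV-ctrl 1, 6.61 FPKM in AAV-ctrl 2 and 6.94 FPKM in the AAV-IL27 library. The controls differed here by 0.45, more than for 97.8% of all tested genes, and the AAV-IL27 library stood 0.29 above their mean but only 0.061 above AAV-ctrl 2. The difference between the groups was thus smaller than that between the AAV-ctrl libraries.

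Mpo encodes myeloperoxidase, the haem enzyme that turns hydrogen peroxide and chloride into hypochlorous acid. Its FPKM was 26.61 and 32.13 under AAV-ctrl (29.4 ± 3.90, SD, n = 2) and 35.44 under AAV-IL27. The AAV-IL27 value was the highest, at 121% of the AAV-ctrl mean, but the log2 difference of 0.27 hardly exceeded the 0.26 between the AAV-ctrl libraries, and was 0.14 against AAV-ctrl 2 alone. Mpo per Elane was 1.48 and 1.54 under AAV-ctrl and 1.36 under AAV-IL27, lower than in both. Elane, the denominator, had a larger log2 difference (0.41) than Mpo, so the lower ratio does not mean less Mpo. The counting intervals of the AAV-IL27 to AAV-ctrl ratio overlapped, at 1.19 to 1.52 for Elane and 1.14 to 1.28 for Mpo. A change of Mpo relative to Elane was thus not established. By the annotation, 4 exons of Mpo overlap exons of Gm11505 on the opposite strand, and whether strand was used in counting is not given in the sources used here, so fragments of the pair may not have been told apart.

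Prss57, which encodes neutrophil serine protease 4, was the exception among the proteases. It measured 4.45 and 4.35 FPKM under AAV-ctrl (4.40 ± 0.071, SD, n = 2) and 3.37 FPKM under AAV-IL27, 76.6% of their mean. The log2 difference was -0.31 beside -0.027 between the AAV-ctrl libraries, and 15.0% of all tested genes were as low or lower. Per FPKM of Elane, Prss57 was at 0.248 and 0.208 under AAV-ctrl and at 0.129 under AAV-IL27. The last exon of Prss57 shares 1157 nt with Fstl3 on the opposite strand, and Fstl3 was listed at 3.91, 3.4 and 3.64 FPKM, a similar level, so the value of Prss57 is uncertain on that point.

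Ms4a3 encodes a tetraspan membrane protein and is used as a mark of granulocyte-monocyte progenitors and their offspring. It measured 4.17, 3.96 and 4.66 FPKM, highest in the AAV-IL27 library at 115% of the AAV-ctrl mean. The log2 difference of 0.16 was the smallest of the 8, and the AAV-ctrl libraries differed by -0.060. With 75, 72 and 85 estimated fragments, it was also the gene with the fewest.

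Serpinb1a encodes the cytosolic inhibitor of elastase, proteinase 3 and cathepsin G. It measured 181.69 and 178.25 FPKM under AAV-ctrl (180 ± 2.43, SD, n = 2) and 155.21 FPKM under AAV-IL27, which was lower than both. The AAV-IL27 value was 86.2% of the AAV-ctrl mean, a log2 difference of -0.21, with -0.027 between the AAV-ctrl libraries. Of all tested genes, 20.7% were as low or lower.

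Srgn encodes the core protein of serglycin, whose sulphated chains pack the proteases in the granule, and mature leukocytes of many kinds also express it. It measured 1088.57, 955.33 and 1243.8 FPKM, the highest value again in the AAV-IL27 library, at 122% of the AAV-ctrl mean (1022 ± 94.2 FPKM, SD, n = 2). The log2 difference was 0.29, and here AAV-ctrl 2 lay 0.19 below AAV-ctrl 1, the opposite of the order seen for Elane, Prtn3, Ctsg and Mpo. Srgn alone made up 81.3%, 78.6% and 83.4% of the summed FPKM of the 8 genes.

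The estimated fragments show how far counting alone limits these values. The ratio of AAV-IL27 to AAV-ctrl fragments, scaled for depth, with its exact 95% interval, was 1.34 (1.19 to 1.52) for Elane, 1.32 (1.13 to 1.53) for Prtn3 and 1.21 (1.14 to 1.28) for Mpo. It was 0.77 (0.64 to 0.92) for Prss57, 0.86 (0.84 to 0.89) for Serpinb1a and 1.22 (1.20 to 1.24) for Srgn. For Ctsg, at 1.23 (0.98 to 1.55), and Ms4a3, at 1.15 (0.87 to 1.52), the interval held 1, so no difference was detectable at this depth. These intervals cover counting error only and not the spread between mice. The same ratio of AAV-ctrl 2 to AAV-ctrl 1 was 1.21 (1.12 to 1.30) for Mpo, 1.44 (1.08 to 1.93) for Ctsg, 0.88 (0.86 to 0.90) for Srgn and 1.17 (1.001 to 1.36) for Elane, so libraries of the same treatment also differed by more than counting error for these 4 genes, for Elane only just.

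**Figure D3:**
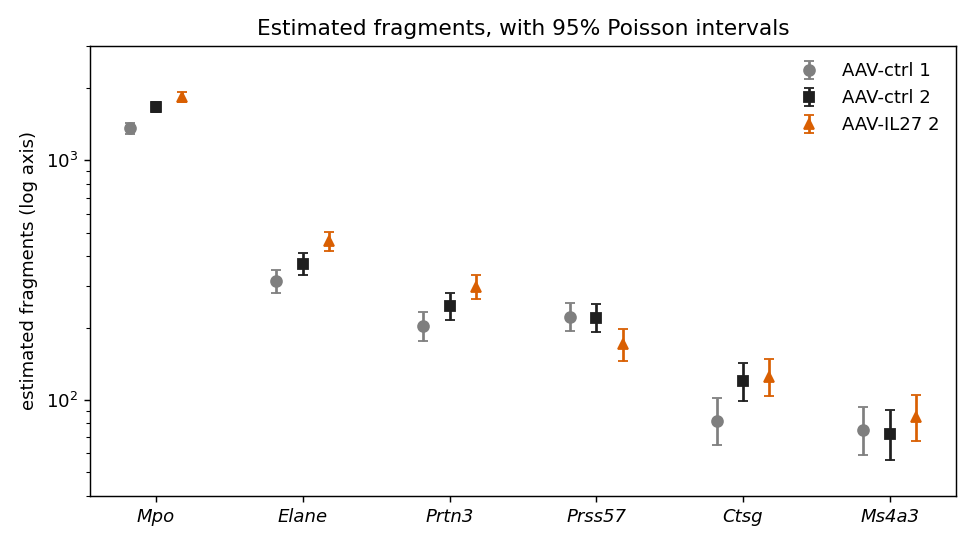
Estimated fragments (log axis) of the 6 less abundant genes in each library, with exact 95% Poisson intervals as bars that cover counting error only; grey circles are AAV-ctrl 1, black squares AAV-ctrl 2 and orange triangles AAV-IL27 2. Estimates run from 72 for Ms4a3 in AAV-ctrl 2 to 1833 for Mpo in AAV-IL27 2, and the AAV-IL27 mark of Prss57 lies below both AAV-ctrl marks.

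Ratios within a library do not depend on how libraries were scaled. Inhibitor mRNA per protease mRNA, taken as Serpinb1a over the sum of Elane, Prtn3 and Ctsg, was 5.39 and 4.37 under AAV-ctrl (4.88 ± 0.726, SD, n = 2) and 3.16 under AAV-IL27. The AAV-IL27 ratio was below both, by 1.18 times the gap between the AAV-ctrl ratios. It is a ratio of bulk RNA, and the balance within a cell was not measured. Ctsg per Elane (0.255, 0.316 and 0.266) lay between the AAV-ctrl values, and Ms4a3 per Elane (0.232, 0.189 and 0.178) lay just below them. The higher Elane value of the AAV-IL27 library (a log2 difference of 0.41) by itself lowers each ratio per Elane there. Counting error of the ratios was not estimated.

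**Figure D4:**
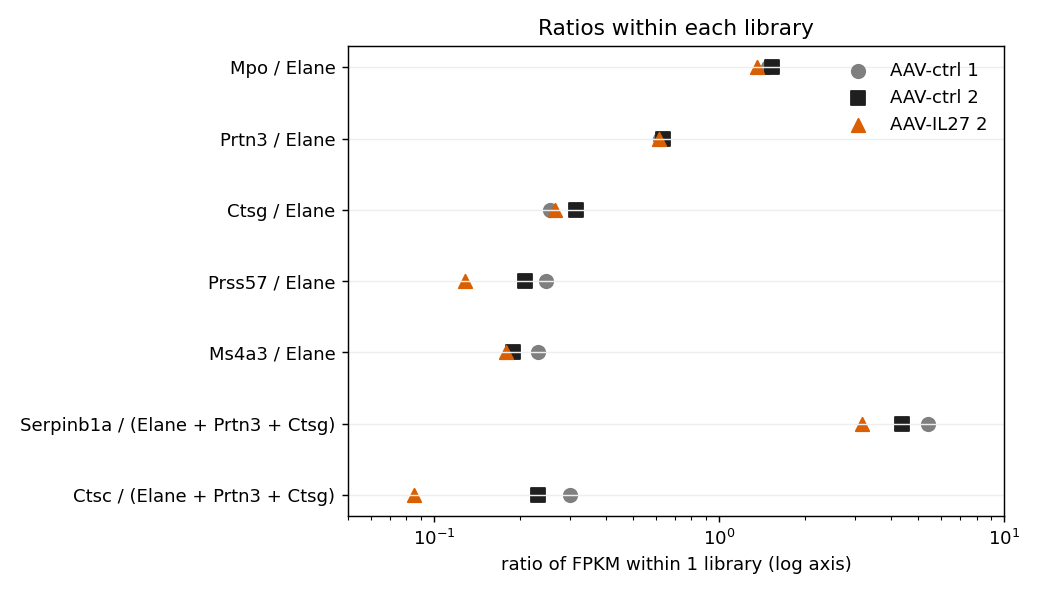
Ratios of FPKM within each library (log axis), 1 row per ratio: grey circles are AAV-ctrl 1, black squares AAV-ctrl 2 and orange triangles AAV-IL27 2. The AAV-IL27 mark lies left of both AAV-ctrl marks in every row except Ctsg per Elane (0.266), where it lies between them. It lies at 0.129 for Prss57 per Elane, 3.16 for Serpinb1a per protease sum and 0.0849 for Ctsc per protease sum. For Prtn3 per Elane (0.616) it is close to the AAV-ctrl marks. Counting error of the ratios was not estimated.

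Elane, Prtn3 and Prss57 lie on chromosome 10 of the GRCm38.p6 assembly (mm10, the build named in the labels), and Elane and Prtn3 are next to each other. Prtn3 lies at chr10:79879667-79883174 and Elane at chr10:79886312-79888216, both on the plus strand and 3138 bp apart, and Prss57 lies at chr10:79781474-79794684 on the minus strand. Srgn (chr10:62493833-62527445, minus strand) is on the same chromosome. Mpo is at chr11:87793784-87804412 (plus strand), Ctsg at chr14:56099885-56102574, Ms4a3 at chr19:11629499-11640851 and Serpinb1a at chr13:32842092-32853206, the last 3 on the minus strand. Of 41 neighbours, taken as the nearest 3 measured genes on each side, 19 passed the filter, and their median difference was -0.15. Of these 19, 2 were above both AAV-ctrl libraries and 9 below both, beside 38.9% and 41.9% of all tested genes. Cfd, the complement factor D protease gene next to Elane, was at 0, 0.18 and 0.06 FPKM, and Lpo, the lactoperoxidase gene next to Mpo, at 0.02, 0 and 0 FPKM. Mcpt8, a basophil protease gene next to Ctsg, was at 4.18, 5.4 and 3.5 FPKM, lowest in the AAV-IL27 library. Mir142b, a microRNA gene near Mpo, had the largest difference of the neighbours past the filter, at 6.16, 4.57 and 12.71 FPKM (a log2 difference of 1.12, and 0.94 above the nearer AAV-ctrl library). It is very short (chr11:87756841-87756955), so its FPKM rests on few fragments, and its counting error was not estimated.

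The promoters of Elane, Prtn3, Mpo and Ctsg are shown because these 4 genes had the same order of libraries (AAV-ctrl 1, then AAV-ctrl 2, then AAV-IL27 2). Each is the 250 bases before the RefSeq transcript start on GRCm38.p6, written 5′ to 3′ on the gene's strand, and capitals mark AGGAAGT, the ETS-family (PU.1 type) letters, and AACGG, the MYB letters. The genes were picked by that order, and the letters were chosen after these sequences had been read. The matches are thus a description, and the shares over all promoters given below do not test them.
Elane chr10:79886062-79886311 (+ strand): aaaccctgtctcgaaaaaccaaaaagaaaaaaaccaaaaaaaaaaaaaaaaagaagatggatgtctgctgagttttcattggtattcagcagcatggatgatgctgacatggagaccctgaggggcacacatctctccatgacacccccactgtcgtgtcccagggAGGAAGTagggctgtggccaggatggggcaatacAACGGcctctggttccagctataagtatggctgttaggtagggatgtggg
Prtn3 chr10:79879417-79879666 (+ strand): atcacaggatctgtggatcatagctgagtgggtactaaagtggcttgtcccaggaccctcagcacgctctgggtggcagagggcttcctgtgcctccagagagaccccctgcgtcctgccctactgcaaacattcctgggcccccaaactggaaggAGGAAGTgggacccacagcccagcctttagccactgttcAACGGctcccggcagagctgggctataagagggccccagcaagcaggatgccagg
Mpo chr11:87793534-87793783 (+ strand): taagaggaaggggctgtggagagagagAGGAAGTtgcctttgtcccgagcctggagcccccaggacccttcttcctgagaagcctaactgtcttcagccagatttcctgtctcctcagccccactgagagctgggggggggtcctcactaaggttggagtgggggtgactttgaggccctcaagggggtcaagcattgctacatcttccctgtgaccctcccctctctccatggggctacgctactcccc
Ctsg chr14:56102575-56102824 (- strand): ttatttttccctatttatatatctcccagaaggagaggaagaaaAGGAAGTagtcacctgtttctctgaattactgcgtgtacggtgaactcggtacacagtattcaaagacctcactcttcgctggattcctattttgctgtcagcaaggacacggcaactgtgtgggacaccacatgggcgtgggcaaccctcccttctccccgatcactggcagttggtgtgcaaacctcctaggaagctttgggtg
AGGAAGT was found in all 4, starting at position -84 in Elane, -94 in Prtn3, -223 in Mpo and -206 in Ctsg, counted back from the base before the start as -1, and on either strand it occurs in 7.69% of 32851 RefSeq promoters of this length. AACGG was found in Elane (-50) and Prtn3 (-55) and occurs in 14.5% of promoters. TTGCNNAA, the C/EBP letters, was found in none of the 4 (9.56% of promoters), and TGTGGT, the RUNX letters, in Ctsg only among these 4 (14% of promoters). In all, 6 of the 8 genes had promoters in the RefSeq table, and those of Ms4a3 and Srgn held neither AGGAAGT nor AACGG. The searched letters do not overlap each other in these matches. Whether a factor binds there was not measured.

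The other genes of the azurophil granule were spread to both sides of the AAV-ctrl libraries. Among 17 other genes for its contents and membrane, 16 passed the filter, 6 were above both AAV-ctrl libraries and 6 below both, and the median difference was -0.0038. The shares over all tested genes, for this list and those that follow, were 38.9% above both and 41.9% below both. The most abundant were Lyz2, the myeloid lysozyme (10465, 11139 and 10914 FPKM, a log2 difference of 0.016), Lyz1 (774.56, 819.55 and 851.09 FPKM, 0.095), the acid protease Ctsd (795.12, 857.31 and 706.7 FPKM, -0.22) and the tetraspanin Cd63 (176.62, 172.79 and 180.82 FPKM, 0.049). Many of these are also expressed by macrophages, whose markers were lower in the AAV-IL27 library, and that part was not tested.

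Among genes that activate, sort or store the granule proteases, 15 of 18 passed the filter, 4 were above both AAV-ctrl libraries and 9 below both, with a median of -0.073. Ctsc encodes cathepsin C, the enzyme that removes the activation dipeptide of the granule serine proteases, and was the 1 gene of the list at least 1 log2 unit below both. It measured 10.11 and 9.43 FPKM under AAV-ctrl and 4.17 FPKM under AAV-IL27, a log2 difference of -1.06 beside -0.091 between the AAV-ctrl libraries. Ctsc per sum of Elane, Prtn3 and Ctsg was 0.300 and 0.231 under AAV-ctrl and 0.0849 under AAV-IL27; this ratio was added after its values were seen. Ctsc is expressed by macrophages too. The most abundant genes of the list were Chst12, a chondroitin sulphotransferase of the kind that modifies serglycin chains (0.040), the granule transport GTPase Rab27a (-0.11), the chaperone Calr (-0.30) and Lyst, the gene of Chediak-Higashi syndrome (-0.046).

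The inhibitor list held 7 of 18 genes past the filter, with 3 above and 3 below both AAV-ctrl libraries and a median of 0.065. Wfdc17, a WAP-domain gene, was the 1 gene at least 1 log2 unit below both, at 75.05, 48.99 and 15.76 FPKM. Serpinb6a, whose product inhibits cathepsin G, measured 34.59, 33.11 and 18.95 FPKM, also lowest in the AAV-IL27 library like Serpinb1a. Slpi, the secreted leukocyte protease inhibitor, was at 761.57, 808.86 and 821.71 FPKM and Wfdc21 at 1036, 1023 and 941.46 FPKM. Stfa2l1 was highest in the AAV-IL27 library at 544.49, 489.36 and 770.03 FPKM, but it is a stefin-type gene, a family that inhibits cysteine proteases, and so does not belong to the serine protease inhibitors by type. Without it, a choice made after seeing the data, the list held 6 genes, 2 above and 3 below both, with a median of -0.032.

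Regulators and stage genes gave no common direction. Of 12 regulators of the promyelocyte stage, 9 passed the filter, 4 above and 4 below both AAV-ctrl libraries, with a median of -0.052. Spi1 (PU.1) was at 588.68, 611.08 and 632.37 FPKM, Cebpe at 119.34, 138.7 and 124.05 FPKM, Ets1 at 36.92, 36.55 and 34.27 FPKM and Cbfb at 29.09, 27.76 and 31.71 FPKM. Of the 13 granulocyte-monocyte progenitor genes past the filter, 6 were above and 5 below both, with a median of 0.043, which came to 0.017 when AAV-ctrl 1 was left out and 0.013 when AAV-ctrl 2 was. The most abundant were Cd24a (a log2 difference of 0.043), Igsf6 (0.38), Plac8 (0.12) and Clec5a (0.085). The specific and gelatinase granule genes, the next granule class to be made, had a median of -0.047, with 3 of 17 above and 9 of 17 below both.

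Of the lists of granulocyte genes and processes compared, the cell cycle genes had the lowest median. Promyelocytes and myelocytes divide, whereas mature neutrophils do not. Of the 17 past the filter, 16 were below both AAV-ctrl libraries (background 41.9%) and 8 by at least 1 log2 unit (background 2.32%), with a median of -1.04. Mki67, the proliferation marker, measured 17.4, 17.98 and 8.04 FPKM, so that Mki67 per Elane was 0.969, 0.860 and 0.308, a ratio also added after its values were seen. Ube2c, Pcna and Stmn1, the other most abundant genes of the list, had log2 differences of -1.08, -1.38 and -0.71. The further genes beyond 1 log2 unit were Rrm2, Mcm3, Mcm5, Birc5 and Ccna2. Erythroid markers, whose cells also divide, had a median of -2.82, and their part in the cell cycle values was not tested.

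**Figure D5:**
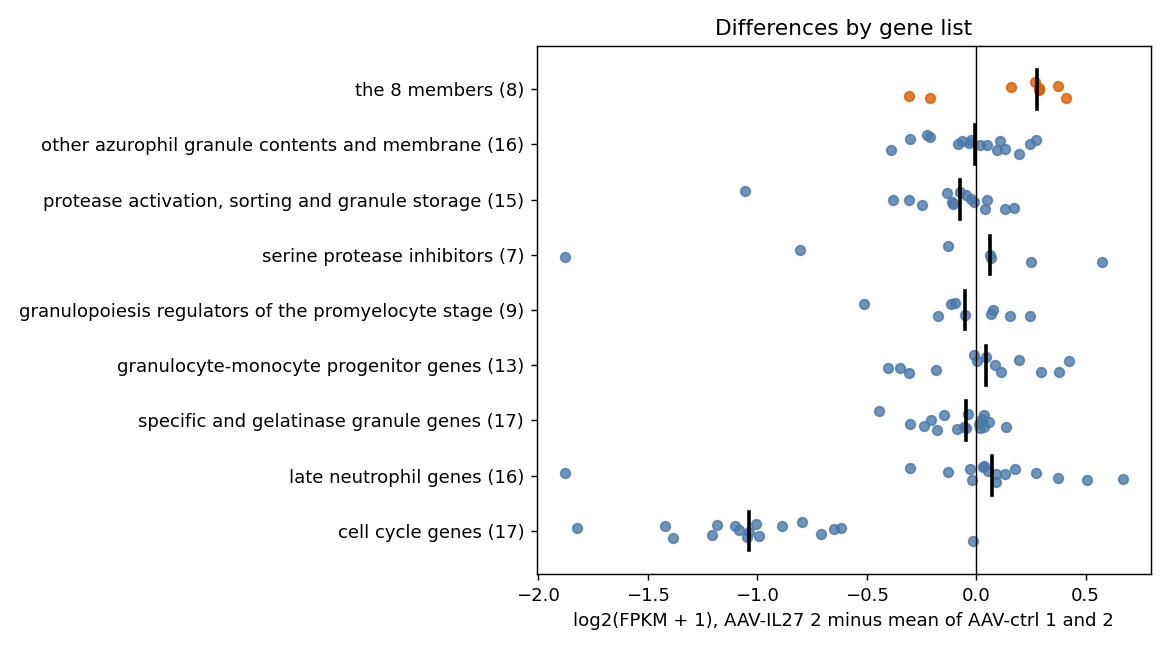
Difference in log2(FPKM + 1), AAV-IL27 2 minus the mean of AAV-ctrl 1 and 2, for each gene that passed the filter, by list, with the number of genes in brackets; orange points are the 8 azurophil genes, blue points the other lists, and black bars the medians, with vertical scatter for legibility only. The median of the 8 lies at 0.28 and that of the cell cycle genes at -1.04, and the medians of the lists between them lie from -0.073 to 0.072.

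Other serine proteases of leukocytes and other haem peroxidases were measured beside them. Of the serine proteases, 4 of the 14 in the table (Plau, Prss34, Prss16 and Mcpt8) passed the filter, with a median of -0.16 and a highest mean of 15.6 FPKM for Plau. Of the haem peroxidases 3 of 5 passed: Ptgs1 (25.32, 30.66 and 20.85 FPKM), Ptgs2 (7.64, 6.91 and 10.8 FPKM) and the eosinophil peroxidase gene Epx (1.23, 1.83 and 0.71 FPKM), with a median of -0.40. Mpo and Epx, near each other on chromosome 11, stood on opposite sides of the AAV-ctrl libraries. Late neutrophil genes had a median of 0.072, with 9 of 16 above both AAV-ctrl libraries and 4 below both, of which Wfdc17 (-1.88) lay at least 1 log2 unit below; the most abundant were Retnlg (0.032), Msrb1 (0.089), Csf3r (0.18) and Ccl6 (0.27).

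The mean pattern of Elane, Mpo, Prtn3 and Ctsg, centred on each gene's mean, was -0.26 in AAV-ctrl 1, 0.033 in AAV-ctrl 2 and 0.22 in AAV-IL27 2. The genes nearest to it by Euclidean distance, among 4473 genes averaging at least 10 FPKM and over only 3 libraries, were Cd99 (65.65, 80.82 and 91.74 FPKM), Rilpl2 (21.95, 26.6 and 31.01 FPKM), Srebf2 (27.48, 33.17 and 39.01 FPKM), Gm16712 (8.49, 10.74 and 12.63 FPKM) and Oas1a (32.5, 40.84 and 45.37 FPKM). The pattern is the mean of these 4 genes, so their own nearness to it is given by construction. By the same measure Prss57 (0.57) and Serpinb1a (0.50) were the farthest of the 8 from the pattern, while Ms4a3 (0.28) and Srgn (0.34) lay about as far as a gene with equal values in the 3 libraries would (0.34).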

How the data were processed

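RNA of Ly6G+ bone marrow cells was enriched with oligo-dT, made into strand-marked libraries with dUTP and sequenced on DNBSEQ. The authors deposited FPKM values with 2 decimals for 16073 rows, 1 of which names no gene and was left out. The submitters' processing notes name mm10. The aligner and the counter are not given in the sources used here. In the table, 1 per-sample column fitted none of the listed samples and was left out.

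Groups came from the labels: 2 AAV-ctrl libraries and 1 AAV-IL27 library. Differences were taken on log2(FPKM + 1), the AAV-IL27 value minus the AAV-ctrl mean, among the 9130 genes that averaged at least 1 FPKM. A gene was counted above or below both AAV-ctrl libraries by any distance, and by 0.5 or 1 log2 unit. No test was run, since 1 AAV-IL27 library gives no replicate error. The 8 genes, the gene lists and the markers were chosen with earlier results of these data known. The genes named are the 8, the neighbours, the 5 closest patterns and, in lists of over 6 measured genes, those at least 1 log2 unit beyond both AAV-ctrl libraries, the 4 with the highest mean FPKM and any that another sentence turns on.

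The table holds no counts. Depth was fitted to the steps of 167, 144 and 141 low values of genes with a single transcript in GENCODE M21, with 70 nt taken off each length, and 71.3%, 70.1% and 71.6% of these fell within 0.15 of a whole fragment. Whole reads were thus recovered only in part, fragment numbers are estimated, and a count test was not made. Intervals are exact, at 95%, and cover counting error only. Positions, neighbour order and promoters are from RefSeq on GRCm38.p6, and strands and exons from GENCODE M21. Alternatives were other pseudocounts, filters, scalings and thresholds, and leaving out each AAV-ctrl library. The work was done in Python 3.11.15 with scipy 1.17.1, pandas 2.3.3 and numpy 2.4.6, and figures with matplotlib 3.10.9. The depth and calling steps were tested on simulated data.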

Additional observations from a re-analysis of the deposited data

How the results depend on the processing

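No paired analysis was made because the labels name no pairs of mice, and no test was run. None of the 8 genes changed the sign of its difference under the 8 alternatives tried for each: Elane ranged from 0.31 to 0.52, Prtn3 from 0.26 to 0.49, Ctsg from 0.061 to 0.51, Mpo from 0.14 to 0.40, Ms4a3 from 0.13 to 0.20, Srgn from 0.19 to 0.38, Prss57 from -0.38 to -0.27 and Serpinb1a from -0.23 to -0.17. All 8 genes lay outside both AAV-ctrl values, so another pseudocount or leaving out 1 AAV-ctrl library could not change a sign or a side. Only the rescalings could, and their factors ran from 0.98 to 1.02. Both ends for Elane, Prtn3, Ctsg, Mpo and Srgn come from leaving out 1 AAV-ctrl library, as do the lowest values for Ms4a3 and Serpinb1a. The median of the 8 was 0.16 when AAV-ctrl 1 was left out and 0.30 when AAV-ctrl 2 was, with 6 above and 2 below each time, and it was at most 0.32, with neutrophil marker scaling.

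At 0.5 or 1 log2 unit 0 of the 8 genes were above and 0 below both AAV-ctrl libraries, the largest margin being 0.31 (Elane). Over all genes 143 and 28 were above, and 640 and 212 below, at 0.5 and 1 log2 unit. The count below both was 6716 with no filter and 2133 with a filter at a mean FPKM of 5, as more or fewer genes were tested.

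Several list medians, most of them near 0, moved by more than the spread between the AAV-ctrl libraries. The haem peroxidases started from -0.40. The progenitor genes, also given here, stayed within that spread in every setting. The first 2 scalings named next moved the median of all tested genes by 0.037 and 0.038, and the cause of the other moves was not tested beyond the genes or library left out. With equal FPKM totals and with neutrophil marker scaling, respectively, they were -0.011 and -0.0097 for the regulators, 0.11 and 0.11 for late neutrophil genes, 0.035 and 0.037 for other azurophil genes, -0.033 and -0.031 for activation, sorting and storage, and 0.084 and 0.086 for the progenitor genes. Without 1 AAV-ctrl library the range was -0.090 to 0.055 for the regulators, 0.050 to 0.073 for late neutrophil genes, -0.031 to 0.034 for other azurophil genes, -0.11 to -0.027 for activation, sorting and storage and -0.12 to 0.11 for the inhibitors, the lower end without AAV-ctrl 1 except for late neutrophil genes, and the progenitor genes were at 0.013 to 0.017. With no filter, activation, sorting and storage was at -0.034, the inhibitors at -0.081, the haem peroxidases at -0.014 and the progenitor genes at -0.00083. With a filter at 5, the regulators were at 0.0083, the inhibitors at -0.031 and the haem peroxidases at 0.056. Without Stfa2l1, a choice made after seeing the data, the inhibitors were at -0.032. Depth limits Ctsg and Ms4a3 most, with 72 to 125 estimated fragments per library.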
